A study of Mus musculus with 4 samples.

Results

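Tumour cells can hold back T cells and macrophages by displaying ligands for inhibitory receptors, and 10 mouse genes for such immune checkpoint molecules were followed in 4 mammary tumour libraries. Rows of the deposited table were taken by Ensembl gene identifier where the GENCODE annotation of GRCm38 gives the symbol Cd274, Pdcd1lg2, Cd80, Cd86, Cd276, Vtcn1, Cd47, Pvr, Lgals9 or Nt5e. All 10 were found among 51826 gene rows, each as a single row. Of them 9 had enough counts to be tested, and Pdcd1lg2 did not.

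The HET group held 2 libraries of genotype Elf5+/- and the WT group 2 of genotype Elf5+/+, all from C3-T+ breast tumours of mice. The protein Elf5 is an ETS family regulator of luminal progenitors in the mammary gland, and the design compares tumours with 1 and with both copies of its gene. Both HET titles carry the number 3211, with tumours 1 and 2, while the WT titles carry 3210 and 4972, each with tumour 1. The HET libraries may thus share an animal, so variation between animals may be missing within HET. No p-value here covers more than the variation among these 4 samples, which may in part be technical. The labels do not spell out C3-T, and they give neither the strain nor the age of the animals. Tumours had been dissociated enzymatically, and antibodies to CD45, CD31 and TER119 served in a sort for tumour cells. Those antibodies mark leukocytes, endothelial cells and erythroid cells.

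The B7 family comprises membrane proteins that T cells read through receptors of the CD28 family. PD-L1 and PD-L2, encoded by Cd274 and Pdcd1lg2, bind the inhibitory receptor PD-1, whereas CD80 and CD86 can either activate T cells through CD28 or restrain them through CTLA-4. Other molecules act outside that family: CD47 signals to SIRP alpha on macrophages to prevent engulfment, CD155 (Pvr) binds TIGIT, CD226 and CD96 on T and NK cells, galectin-9 (Lgals9) is a lectin that binds TIM-3, and CD73 (Nt5e) converts extracellular AMP to immunosuppressive adenosine. Interferon gamma is the best known inducer of PD-L1, and galectin-9 is also induced by interferons.

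Promoter windows are shown for the pair of members known for interferon induction, Lgals9 because it had the smallest p of the members in the test over all 4 libraries and Cd274 because it is the most studied of them. They come from RefSeq on GRCm38.p6, and run 5′ to 3′ on the gene's strand from 250 bases before the annotated start to 50 after it. Windows were found for 8 of 10 members, all but Cd86 and Pvr, which were therefore not searched. Capitals mark matches, on either strand, in Lgals9 to the core of the interferon-stimulated response element, searched as a pair of GAAA runs with any 2 bases between them, and in Cd274 to its shortened form GAAANNGA. Every match to the longer motif also holds the shorter one.
Lgals9, chr11:78984875-78985174, minus strand: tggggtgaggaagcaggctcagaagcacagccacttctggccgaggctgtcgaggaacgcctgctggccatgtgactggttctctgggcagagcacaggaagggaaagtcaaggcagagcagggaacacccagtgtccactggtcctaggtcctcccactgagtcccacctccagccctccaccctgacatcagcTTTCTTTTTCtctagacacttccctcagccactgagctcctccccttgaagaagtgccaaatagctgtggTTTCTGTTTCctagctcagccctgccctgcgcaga
Cd274, chr19:29367188-29367487, plus strand: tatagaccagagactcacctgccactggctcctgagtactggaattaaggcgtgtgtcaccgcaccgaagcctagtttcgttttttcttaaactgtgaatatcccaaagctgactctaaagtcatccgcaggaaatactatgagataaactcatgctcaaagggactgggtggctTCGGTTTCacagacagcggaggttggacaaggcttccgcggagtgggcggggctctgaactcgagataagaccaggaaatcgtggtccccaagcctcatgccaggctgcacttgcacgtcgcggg

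The Lgals9 window held 2 matches to the longer motif, with first bases at -55 and 16 relative to the start. Of 32851 promoter windows of the same length, 3.44% hold this motif, and Lgals9 was the 1 member that did among the 8 with windows. The shorter motif lay at -75 in Cd274 and is common, in 6883 of 32851 windows, among them those of Cd274, Cd80 and Lgals9. TTCNNNGAA, the GAS motif of interferon gamma response, is in 8.3% of windows and in 0 of the members' windows. A match of letters describes the window and is not evidence that a factor binds there.

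Libraries held between 12695132 and 15307939 counts. At that depth a count of 0 allows up to 3 counts, or 0.196 to 0.236 CPM without TMM scaling, counting error only. CPM here are counts per 1000000 counts of a library, with TMM scaling for all gene levels. Elf5 itself stood at 5.39 and 10.6 CPM in HET 1 and HET 2, against 35.6 CPM in WT 1 and 4.70 CPM in the library labelled WT 2. By RNA level that last library went against its label, though a sum over the gene is no check of the allele itself. Every fold change takes that label to be right, and the signs for Cd274, Cd80, Pvr and Nt5e turned when that library was left out. It also had 44.5% of genes at a count of 0, where the other 3 had 29.9% to 31.3%. Epithelial markers were well represented: Epcam stood at 769 and 613 CPM in HET, against 1040 CPM in WT 1 and 1288 CPM in the library labelled WT 2. Cells marked by the sorting antibodies remained detectable, with Ptprc (CD45) at 73.4 and 66.1 CPM in HET, against 62.1 CPM in WT 1 and 2.85 CPM in the library labelled WT 2. Pecam1 (CD31) stood at 127 and 272 CPM in HET, against 221 and 55.6 CPM in WT.

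Summed marker lists show how unlike the others the library labelled WT 2 was. The 12 macrophage and monocyte markers summed to 939 and 573 CPM in HET 1 and HET 2, against 887 CPM in WT 1 and 39.6 CPM in the library labelled WT 2, where all 12 were lowest and 0 of them at a count of 0. The 9 fibroblast markers summed to 3958 and 4944 CPM in HET, against 6566 CPM in WT 1 and 21810 CPM in the library labelled WT 2. Each fold change of a member was therefore recomputed without that library and without WT 1. In such mixed RNA, fewer cells of a type and less RNA per cell cannot be told apart.

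No difference between HET and WT in a member passed edgeR's quasi-likelihood test with Benjamini-Hochberg adjustment over 21607 genes: 0 of 9 tested members passed an adjusted p under 0.05, as did 0% of all genes. DESeq2 called 0 members and 0.62% of all genes, and limma-voom 0 of either. Without WT 1 the test called 0 members where 3.04% of all genes passed, and without the library labelled WT 2 it called 0 where 0.0417% did. At an unadjusted p under 0.05 there was 1 member, Lgals9, where the share over all genes was 3.78%. Which members passed this looser threshold changed with the libraries and the filter. Without WT 1 there were 5 (Cd274, Cd86, Cd276, Lgals9 and Nt5e), where 20.5% of all genes passed it. Without HET 1 there were 2, Vtcn1 and Nt5e (1.69% of all genes), and there were 0 without HET 2 (1.67%) or without the library labelled WT 2 (5.46%). With no filter beyond 1 count the 1 member was Nt5e (4.95% of all genes). Both HET libraries lay above both WT libraries for Lgals9 alone (19.6% of all genes tested) and below them for Cd276 and Cd47 (15.9% of all genes). These 3 of 9 tested members are near the 35.5% of all genes whose groups did not overlap, so the count says nothing particular about the members. Over the 9 tested members the median log2 fold change (HET over WT) was -0.58, with 3 above 0 and 6 below, while that of all genes tested was 0.04. In 7 of the 9 members with counts in every library, the larger of the ratios within HET and within WT exceeded the ratio of the genotype means. Taking the larger ratio, and setting single libraries against means, both tilt this count upward. Its share over all genes was not computed, so it says nothing particular about the members.

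**Figure D1:**
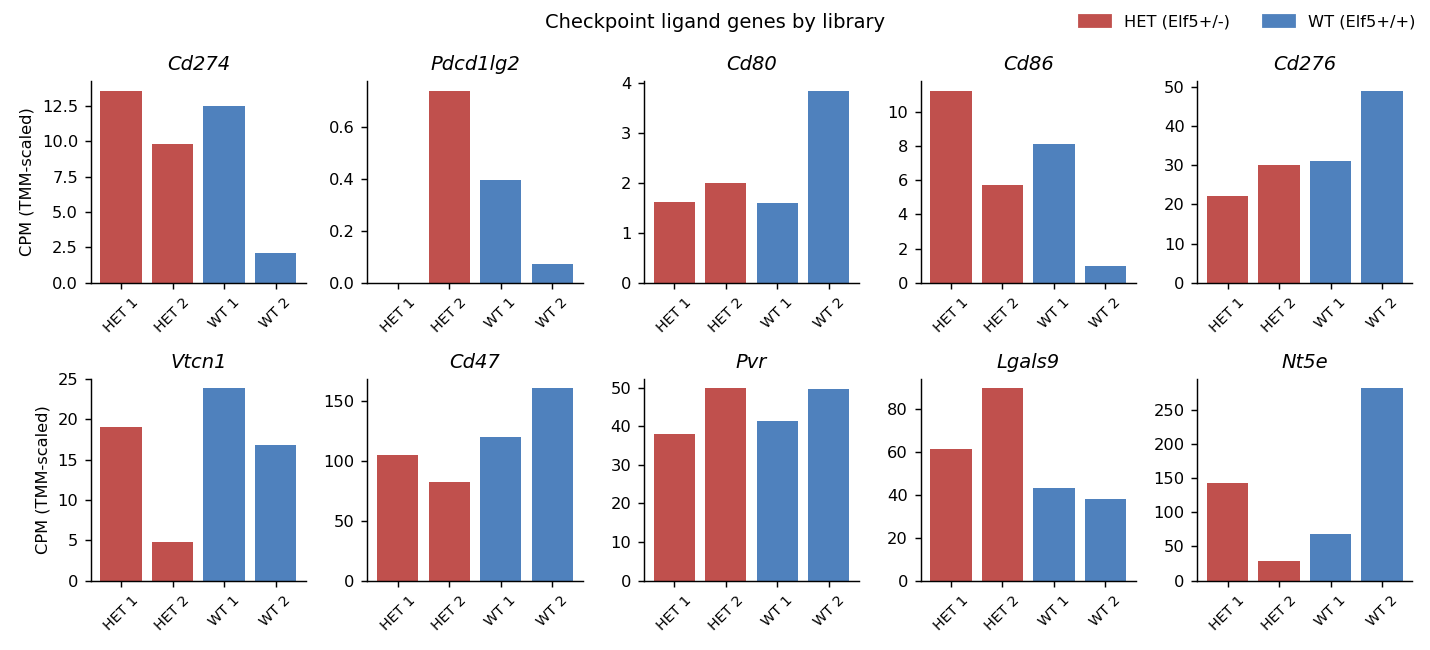
TMM-scaled CPM of each of the 10 ligand genes (y axes, each on its own linear scale from 0) in HET 1, HET 2, WT 1 and the library labelled WT 2, with 1 bar per library. Lgals9 is the 1 gene with both HET bars above both WT bars; Cd276 and Cd47 show the opposite order.

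Cd274, the gene for PD-L1 (chromosome 19, 29367455 to 29388095, GRCm38, plus strand), stood at 13.6 CPM in HET 1 and 9.80 CPM in HET 2, against 12.5 CPM in WT 1 and 2.14 CPM in the library labelled WT 2. Its counts in that order were 209, 132, 157 and 30. The genotypes overlapped, since WT 1 lay between the HET libraries and a single WT library was low. The fold change of HET over WT was 1.6, or 0.68 ± 0.80 on the log2 scale (SE, n = 2 libraries per genotype), with a 95% interval of -1.28 to 2.64 (edgeR adjusted p = 0.987). The log2 fold change was -0.10 without the library labelled WT 2, and without WT 1 it was 2.45 ± 0.58 (SE, edgeR adjusted p = 0.0637).

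Of the nearest genes with known roles in the pathway, Jak2 had another profile than Cd274, and Pdcd1lg2 had too few counts to compare. Jak2, which encodes the kinase next to the interferon gamma receptor, ends 54.4 kb before Cd274, and Pdcd1lg2 begins 22.8 kb after it. Jak2 stood at 50.5 and 39.5 CPM in HET 1 and HET 2, against 42.1 CPM in WT 1 and 48.5 CPM in the library labelled WT 2. So in the library where Cd274 was lowest, Jak2 was the second highest of the 4. Cd274 shares 511 exon bases with the antisense gene AC119228.1, for which no counts were analysed here. The 22 other tested protein-coding genes within 2 megabases of Cd274 had a median log2 fold change of -0.03, with 9 above 0.

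Genes whose levels ran most like those of Cd274 were sought by the root mean square difference of centred log2 CPM over the 4 libraries, among 13197 protein-coding genes. With 4 libraries this only describes these samples. The closest was Sema6b, a semaphorin gene, at a difference of 0.0373, and it stood at 5.97 and 4.53 CPM in HET, against 5.57 CPM in WT 1 and 0.855 CPM in the library labelled WT 2. Next came Ccl9 (0.0458), a chemokine gene, the gene model Gm21833 (0.061), Selplg (0.0699), which encodes the P-selectin ligand of leukocytes, and Unc93b1 (0.082), which encodes the escort protein of endosomal Toll-like receptors. Cd86 ranked 139 (0.265) and the macrophage receptor gene Csf1r 237 (0.337), while the interferon pathway gene Irf1 ranked 3713. These ranked genes after Unc93b1 were chosen with their values known.

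Markers of several other cell types were low where Cd274 was low. In the library labelled WT 2 the leukocyte, macrophage, T and NK cell, neutrophil and endothelial lists all had their smallest sums. Relative to 1000 summed CPM of macrophage and monocyte markers, Cd274 stood at 14.5 and 17.1 CPM in HET 1 and HET 2, against 14.1 CPM in WT 1 and 54.0 CPM in the library labelled WT 2. The 3 libraries other than WT 2 thus had close ratios, and the library with the least macrophage RNA had the highest. Whether Cd274 came from any of these cells or from tumour cells was not tested.

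Pdcd1lg2, the gene for PD-L2 (chromosome 19, 29410919 to 29471161, plus strand), was close to the detection limit. It had 0 and 10 counts in HET 1 and HET 2, against 5 and 1 in WT 1 and the library labelled WT 2. A count of 0 in HET 1 allows up to 0.206 CPM without TMM scaling. HET 2 was highest at 0.742 CPM, and no difference between the genotypes was detectable at this depth. The antisense gene A930007I19Rik, which shares 0 exon bases with Pdcd1lg2, had 30 and 25 counts in HET, against 14 and 2 in WT, more than the ligand gene in each library.

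Cd86 (chromosome 16, 36603869 to 36666081, minus strand) encodes the CD28 and CTLA-4 ligand present on resting antigen-presenting cells. It stood at 11.2 CPM in HET 1 and 5.71 CPM in HET 2, against 8.11 CPM in WT 1 and 0.997 CPM in the library labelled WT 2. As with Cd274, 1 WT library was low and the other lay between the HET values. The log2 fold change was 0.90 ± 0.95 (SE, n = 2 per genotype, 95% interval -1.41 to 3.21, edgeR adjusted p = 0.987), and 0.06 without the library labelled WT 2. Without WT 1 it was 3.08 ± 0.73 (SE, edgeR adjusted p = 0.0656). Per 1000 summed CPM of macrophage markers, Cd86 stood at 12.0 and 9.97 CPM in HET, against 9.15 CPM in WT 1 and 25.2 CPM in the library labelled WT 2. The ratio was again highest in the library with the least macrophage RNA, and the part of macrophages was not tested.

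Cd80 (chromosome 16, 38455561 to 38496335, plus strand) encodes the other CD28 and CTLA-4 ligand, which also binds PD-L1 in the same membrane. Its levels were 1.62 and 2.00 CPM in HET 1 and HET 2, against 1.59 CPM in WT 1 and 3.85 CPM in the library labelled WT 2. The highest value therefore lay in the library with the fewest macrophage transcripts, the reverse of Cd86. Its log2 fold change was -0.59 ± 0.70 (SE, n = 2 per genotype, 95% interval -2.30 to 1.13, edgeR adjusted p = 0.987), and it turned to 0.19 without the library labelled WT 2. Per 1000 summed macrophage CPM, Cd80 stood at 1.73 and 3.50 CPM in HET, against 1.79 CPM in WT 1 and 97.1 CPM in the library labelled WT 2.

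Which of both genes supplied more counts differed in 1 library. Of all Cd80 and Cd86 counts in a library, Cd86 supplied 87.4% in HET 1 (95% exact Clopper-Pearson interval 81.9% to 91.7%) and 74.0% in HET 2 (64.5% to 82.1%). It supplied 83.6% in WT 1 (75.8% to 89.7%) and 20.6% in the library labelled WT 2 (11.7% to 32.1%). The interval of that last library did not meet those of the other 3, but it covers counting error only. WT 1 lay between the HET libraries, so the balance did not separate the genotypes. Receptors of these ligands were scarce: Cd28 stood at 3.57 and 3.19 CPM in HET, against 1.27 and 0.427 CPM in WT, and Ctla4 at 6.75 and 2.75 CPM in HET, against 4.69 and 0.142 CPM in WT.

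Cd276 encodes B7-H3, a B7 family member that is frequent on carcinoma cells and stroma. It (chromosome 9, 58524298 to 58555437, minus strand) stood at 22.1 CPM in HET 1 and 30.05 CPM in HET 2, against 31.02 CPM in WT 1 and 49.0 CPM in the library labelled WT 2. Both HET libraries were lower than both WT libraries, although HET 2 and WT 1 lay side by side. The log2 fold change was -0.62 ± 0.36 (SE, n = 2 per genotype, edgeR adjusted p = 0.987), with a 95% interval of -1.50 to 0.27, and it was -0.25 without the library labelled WT 2. The summed CPM of fibroblast markers ran in the same order, at 3958 and 4944 in HET, against 6566 and 21810 in WT. Within HET most single markers did not: 6 of 9 were lowest in HET 2 and 3 in HET 1, where Cd276 was lowest. Of these markers 0 of 9 were at a count of 0 in any library. Their part in the result was not tested. A gene model on the opposite strand, Gm10657, shares 416 exon bases with Cd276 and had 10 counts or fewer in each library.

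Vtcn1 (chromosome 3, 100825459 to 100896922, plus strand) encodes B7-H4, an inhibitory B7 molecule of mammary and other glandular epithelium. Its level was 19.1 CPM in HET 1 and 4.82 CPM in HET 2, against 23.9 CPM in WT 1 and 16.9 CPM in the library labelled WT 2. HET 2 alone was low, and HET 1 lay between the WT libraries. Within HET the libraries differed 3.96-fold, more than the 1.7-fold difference of the genotype means. The log2 fold change of -0.77 ± 0.66 (SE, n = 2 per genotype, 95% interval -2.38 to 0.84, edgeR adjusted p = 0.987) was -0.15 without HET 2 and -2.12 without HET 1. The 10 epithelial markers summed to 3035 and 2561 CPM in HET 1 and HET 2, against 4206 CPM in WT 1 and 3787 CPM in the library labelled WT 2, with 4 of 10 lowest in HET 2 and 0 at a count of 0. Their part in the Vtcn1 level was not tested.

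Cd47 was abundant in every library. This gene (chromosome 16, 49800533 to 49915010, plus strand) stood at 105 CPM in HET 1 and 82.2 CPM in HET 2, against 119.5 CPM in WT 1 and 160.4 CPM in the library labelled WT 2. HET libraries were lower than WT libraries without overlap, and HET 1 and WT 1 lay closest to each other. For Cd47 the log2 fold change was -0.58 ± 0.31 (SE, n = 2 per genotype, 95% interval -1.35 to 0.19, edgeR adjusted p = 0.987), and -0.35 without the library labelled WT 2. Its profile lay closer to the mean of the 10 epithelial markers (root mean square difference 0.119) than to any of the other 9 marker lists, of which fibroblasts came next (0.365). Its receptor gene Sirpa, named as such after its values were seen, stood at 63.1 and 53.6 CPM in HET, against 77.5 and 51.7 CPM in WT. Qpctl, whose enzyme modifies CD47 so that SIRP alpha can bind, stood at 7.79 and 7.27 CPM in HET, against 9.47 and 6.27 CPM in WT.

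Pvr (chromosome 7, 19903578 to 19921160, minus strand) was the steadiest member, with a 1.31-fold range over all libraries. It stood at 38.0 CPM in HET 1 and 49.9 CPM in HET 2, against 41.4 CPM in WT 1 and 49.6 CPM in the library labelled WT 2. The genotypes overlapped, and the difference was smaller than the spread within either of them. For Pvr the log2 fold change was -0.05 ± 0.30 (SE, n = 2 per genotype, edgeR adjusted p = 0.995), with an interval of -0.79 to 0.69 that leaves room for a change in either direction. Its sign turned positive under upper-quartile scaling (0.030) and without HET 1 (0.07) or the library labelled WT 2 (0.087). Tigit, the inhibitory receptor of CD155, stood at 4.09 and 3.34 CPM in HET, against 1.67 and 2.42 CPM in WT, and Cd96, another receptor, at 1.56 and 2.38 CPM in HET, against 0.557 and 0.0712 CPM in WT. Neither passed the test.

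Lgals9 (chromosome 11, 78962974 to 78984946, minus strand) had the smallest p of the members in the test over all 4 libraries. It stood at 61.3 CPM in HET 1 and 89.8 CPM in HET 2, against 43.4 CPM in WT 1 and 38.1 CPM in the library labelled WT 2. Both HET libraries were above both WT libraries, and the WT libraries differed only 1.14-fold. The mean was 75.5 ± 20.2 CPM in HET and 40.7 ± 3.71 CPM in WT (SD, n = 2 each). This was a 1.85-fold difference, 0.89 ± 0.32 on the log2 scale (SE, 95% interval 0.11 to 1.67), with an unadjusted p of 0.031 in edgeR. Adjusted over all genes it did not pass (edgeR adjusted p = 0.987, and between 0.212 and 1 across the alternatives). Its log2 fold change stayed positive under all 11 alternatives, from 0.53 without HET 2 to 1.09 without HET 1. Other members had smaller unadjusted p in some of these: Nt5e in edgeR with no filter beyond 1 count (0.00389, against 0.0501 for Lgals9), Cd274 and Cd86 without WT 1 (0.00268 and 0.00292, against 0.0386), and Vtcn1 without HET 1 (0.0187, against 0.052).

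Markers of other cells can be set beside Lgals9 library by library. Between WT 1 and the library labelled WT 2, macrophage markers differed between 887 and 39.6 CPM, while Lgals9 stood at 43.4 and 38.1 CPM; the part of macrophages in its level was not tested. T and NK cell markers had a summed CPM of 52.6 and 57.3 in HET, against 22.9 and 6.77 in WT, and 0 of 10 tested passed the edgeR test. Of these 10, all had a log2 fold change above 0 (52.7% of all genes) and 8 lay higher in HET without overlap (19.6% of all genes). Among those at a count of 0 were 1 of 11 in HET 2 and 1 of 11 in the library labelled WT 2. The part of T and NK cells in the Lgals9 result was not tested. Havcr2, which encodes the galectin-9 receptor TIM-3, stood at 20.7 and 6.83 CPM in HET, against 17.1 and 1.28 CPM in WT. Around Lgals9, 57 of 74 other tested protein-coding genes within 2 megabases had a log2 fold change above 0, where the share over all genes was 52.7%. The median of these neighbours was 0.14, beside 0.89 for Lgals9, which was singled out among the members by its p. The part of the region in the Lgals9 result was not tested.

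Nt5e (chromosome 9, 88327197 to 88372092, plus strand) varied most among the well-detected members in absolute level. It stood at 142.9 CPM in HET 1 and 28.05 CPM in HET 2, against 68.1 CPM in WT 1 and 282 CPM in the library labelled WT 2. Each genotype held a high and a low library, 5.09-fold apart in HET and 4.15-fold in WT. The log2 fold change of -1.04 ± 0.91 (SE, n = 2 per genotype, 95% interval -3.25 to 1.17, edgeR adjusted p = 0.987) turned to 0.33 without the library labelled WT 2 and was -2.74 without HET 1. Nt5e is expressed by fibroblasts as well as by tumour cells, and fibroblast markers were highest in the library where Nt5e was highest. HET 1 had the lowest fibroblast sum, at 3958 CPM, and the second highest Nt5e. That sum is mostly Col1a1, Col1a2 and Col3a1, the 3 of 9 fibroblast markers that were lowest in HET 1. The other 6 were lowest in HET 2, where Nt5e was lowest too. The part of fibroblasts in the Nt5e level was not tested.

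**Figure D2:**
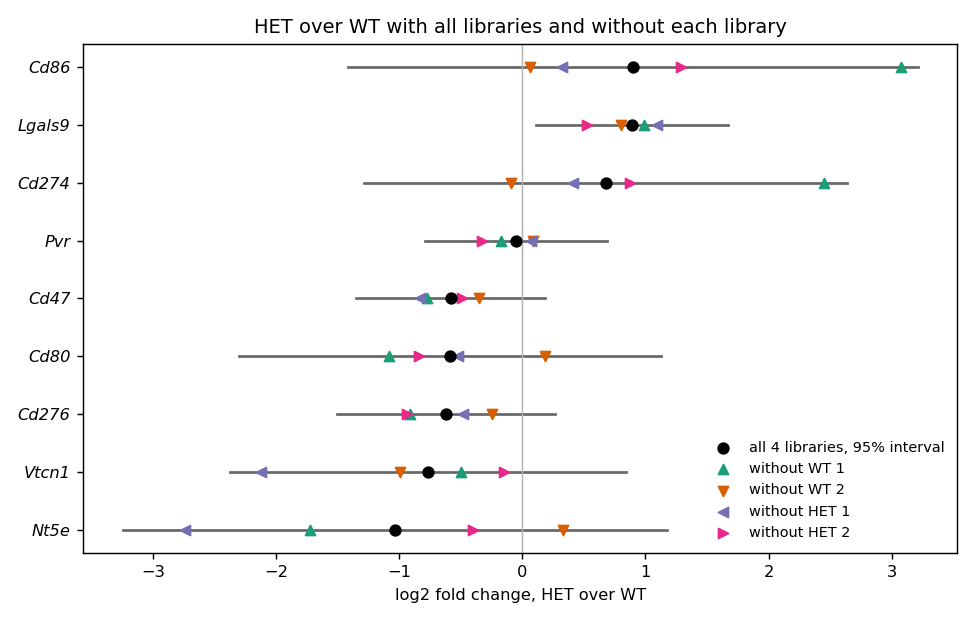
Log2 fold change of HET over WT (x axis) for the 9 tested ligand genes (rows), with black points and 95% intervals for all 4 libraries and coloured triangles for fits that leave out 1 library each. For Cd274 and Cd86 the fits without WT 1 (2.45 and 3.08) and without the library labelled WT 2 (-0.10 and 0.06) lie far apart, while those of Lgals9 stay between 0.53 and 1.09.

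Per kilobase of annotated exon, the scale on which genes can be set beside each other, Lgals9 was the highest member, with a mean of 27.2 ± 10.9 CPM per kilobase over all libraries (SD, n = 4). Cd47 followed at 18.6 ± 5.24, Nt5e at 15.2 ± 13.0, Cd276 at 9.04 ± 3.10, Pvr at 7.31 ± 0.974 and Vtcn1 at 6.16 ± 3.09 CPM per kilobase. Cd274 came below all of these at 2.62 ± 1.42, ahead of Cd86 at 1.78 ± 1.18, Cd80 at 0.612 ± 0.289 and Pdcd1lg2 at 0.154 ± 0.174 CPM per kilobase. This order is of means over both genotypes and did not hold in every library. Lgals9 was highest in HET 1, HET 2 and WT 1, at 28.7, 42.0 and 20.3 CPM per kilobase, whereas in the library labelled WT 2 it stood at 17.8, below Nt5e at 32.8 and Cd47 at 25.6 CPM per kilobase. The ranges of neighbours in this order overlapped across libraries, except for Cd80 over Pdcd1lg2. With the length of the longest transcript in place of all exons, Nt5e stood at 32.6, Cd47 at 22.2, Pvr at 15.4 and Cd276 at 9.17 CPM per kilobase, which puts Nt5e above Cd47 and Pvr above Cd276. PD-1 ligand transcripts were thus fewer per length than those of Lgals9, Cd47, Cd276 or Pvr in each of the 4 libraries.

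**Figure D3:**
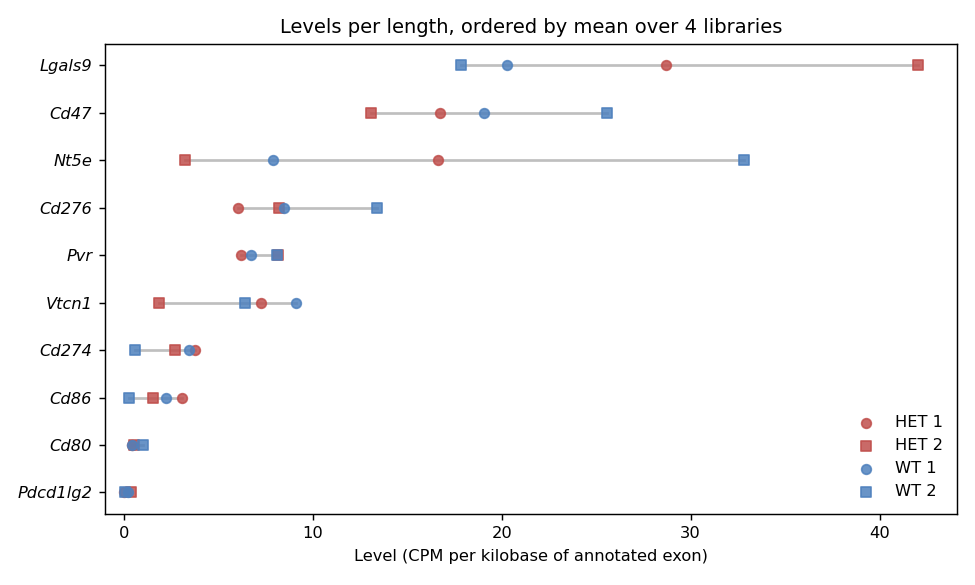
Level in CPM per kilobase of annotated exon (x axis, linear) of the 10 ligand genes, ordered by their mean over 4 libraries, with 1 point per library and grey lines for the range. Lgals9 spans 17.8 to 42.0 and Nt5e 3.26 to 32.8, while Cd274 stays at or below 3.75 in every library.

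Profiles over the libraries fell into different kinds when each gene's log2 CPM was centred on its mean. Cd86 and Cd274 were at -2.13 and -1.80 in the library labelled WT 2, where 8 of the 10 marker lists were also low, with averages between -3.28 (macrophages) and -1.19 (dendritic cells), and -2.59 for endothelial markers. Cd80, Cd276, Cd47 and Nt5e were highest in that library, at 0.82, 0.63, 0.50 and 1.59, where fibroblast markers averaged 1.11 and epithelial markers 0.31. Among 10 marker lists, Cd86 was nearest to the leukocyte list (root mean square difference 0.43), with the endothelial list next (0.614). The leukocyte list includes Cytip, which was highest in the library labelled WT 2, at 120 CPM, where the other 7 leukocyte markers were lowest. The difference of Cd86 from the list without Cytip was not computed, so this nearest rank may rest on that 1 marker. Cd80 and Cd276 were nearest to the fibroblast list (0.287 and 0.335), and Cd274 to the dendritic cell list (0.409, with the macrophage list at rank 7 and 0.863). This difference counts the size of the swings as well as their order, so it is no measure of shape alone. Cd274 stood at 0.79, 0.33, 0.67 and -1.80 in HET 1, HET 2, WT 1 and the library labelled WT 2. The macrophage list ran in the same order with wider swings, at 1.4, 0.63, 1.25 and -3.28. The dendritic cell list was highest in HET 2, at 0.46. Pvr and Vtcn1, like Cd47, were nearest to the epithelial list, at 0.339 and 0.676. That list moved little on average, between -0.42 and 0.31, so a steady gene lies near it whatever its order. Pvr was highest in HET 2, at 0.17, where the epithelial list was lowest. Lgals9 had its smallest difference from the dendritic cell list, at 0.517, and Nt5e from the fibroblast list, at 0.85. In WT 1, however, Lgals9 was at -0.34 and the dendritic cell list at 0.39. The T and NK cell, B and plasma cell, endothelial and erythroid lists ran in the same library order as Lgals9, with wider swings.

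**Figure D4:**
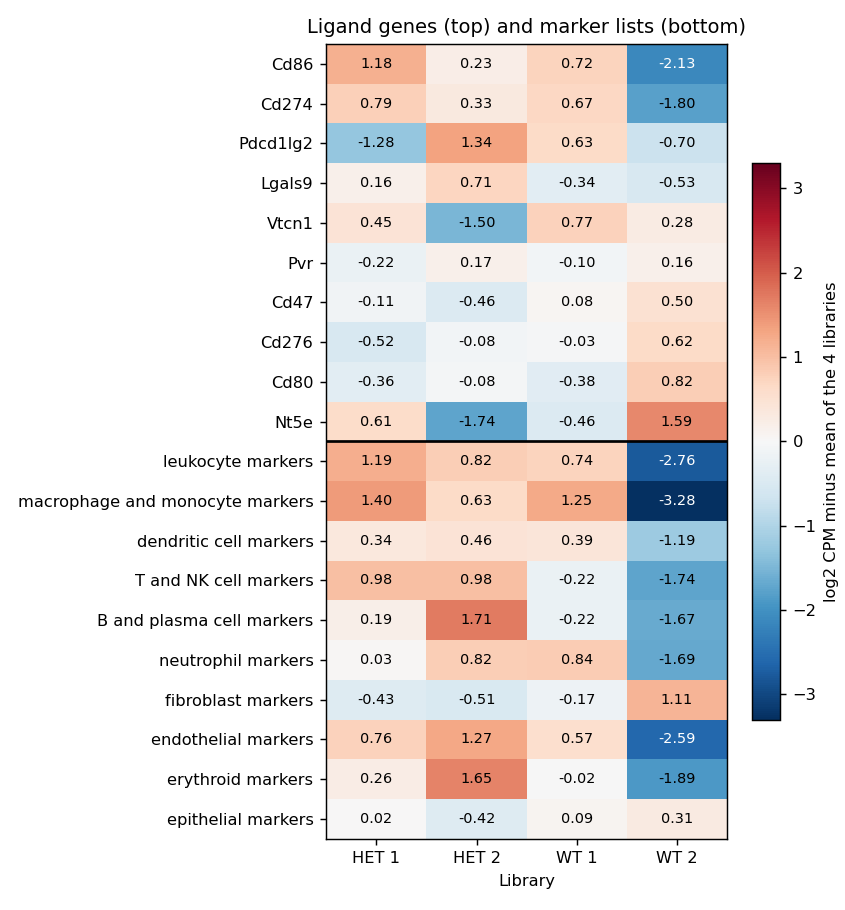
Log2 CPM minus the mean of the 4 libraries (colour and printed value) for the 10 ligand genes (above the line) and for the average of each marker list (below it), with libraries in columns. In the library labelled WT 2, Cd86 (-2.13) and Cd274 (-1.80) are low together with 8 of the 10 marker lists (-3.28 to -1.19), while Nt5e (1.59) and fibroblast markers (1.11) are high.

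Other genes of the same pathways were read from lists of 12 receptors, 21 further ligands, 23 regulators and 14 adenosine pathway genes. Of 70 genes 65 were tested, 0 passed the edgeR test over all genes, and 5 had an unadjusted p under 0.05, where the share over all genes was 3.78%. The receptor list had a median log2 fold change of 0.86, with 8 of 11 tested above 0, against 0.04 for all genes. It included Cd28 (1.99 ± 0.77, SE) and Cd96 (2.63 ± 1.10), its members of smallest p, and the median was 2.96 without WT 1, 0.62 without the library labelled WT 2 and 0.19 without HET 1. Receptors of T cells stand in this list, and T and NK cell markers summed higher in HET as given above; the part of those cells was not tested.

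Among the further ligands 9 of 18 tested had a log2 fold change above 0. Lgals1, which encodes galectin-1, a lectin that can kill activated T cells, stood at 114 and 112 CPM in HET 1 and HET 2, against 262 CPM in WT 1 and 209 CPM in the library labelled WT 2 (log2 fold change -1.06 ± 0.29, SE, edgeR adjusted p = 0.987). Lgals3, which encodes galectin-3, is in the same list and was named after its values were seen, and it stood at 128 and 85.6 CPM in HET, against 203 and 154 CPM in WT. Galectin-9 was thus higher, and galectin-1 and galectin-3 lower, in HET without overlap, as 35.5% of all genes were in either direction, and none of the 3 passed the test. Cd200, which encodes a ligand that restrains myeloid cells, stood at 29.6 and 27.6 CPM in HET, against 45.3 and 63.3 CPM in WT (log2 fold change -0.92 ± 0.31, SE). Lgals1 is also abundant in fibroblasts, whose markers summed lower in HET, and their part was not tested.

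Regulators of the members showed a median log2 fold change of -0.01, with 10 of 23 above 0. Nlrc5, whose protein drives MHC class I transcription, and Hif1a, a hypoxia factor that can induce Cd274, had the smallest p of the list (log2 fold changes 1.05 ± 0.36 and -0.61 ± 0.28, SE). Cmtm6, which protects PD-L1 from degradation, stood at 66.4 and 59.1 CPM in HET, against 39.3 and 68.9 CPM in WT, and so overlapped. Irf1 stood at 72.4 and 84.2 CPM in HET, against 73.7 and 68.5 CPM in WT. Cmtm6 and Irf1, as Qpctl above and Entpd1 below, were named after their values were seen.

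The adenosine pathway had 6 of 13 tested genes above 0 and a median log2 fold change of -0.04, which was 0.75 without WT 1. Entpd1 encodes CD39, which makes the AMP that CD73 uses, and stood at 30.9 and 24.6 CPM in HET, against 22.8 CPM in WT 1 and 2.99 CPM in the library labelled WT 2. Nt5e was highest where Entpd1 was lowest. Enpp1, which yields AMP from other nucleotides, stood at 34.5 and 52.9 CPM in HET, against 130 and 83.8 CPM in WT (log2 fold change -1.29 ± 0.37, SE, edgeR adjusted p = 0.987). Cd38, which starts an NAD-based route to adenosine, stood at 9.997 and 14.0 CPM in HET, against 5.73 and 1.28 CPM in WT (log2 fold change 1.77 ± 0.75, SE). Without WT 1 both Entpd1 (adjusted p = 0.0188) and Cd38 (adjusted p = 0.0359) passed in edgeR, a fit in which 3.04% of all genes did. That fit sets HET against the library labelled WT 2 alone. Endothelial markers summed to 327 and 538 CPM in HET, against 71.8 CPM in that library. Leukocyte markers other than Cytip, left out after its values were seen, summed to 240 and 203 CPM in HET, against 12.0 CPM there. The part of such cells in these calls was not tested.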

How the data were processed

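RNA-seq values of 4 sorted tumour samples were analysed, 2 per genotype, grouped by their titles. The authors deposited estimated counts per gene as whole numbers, made with Salmon against GRCm38.p5 (tool and build per the submitters' processing notes). No source used here gives the version of Salmon, the transcript set or the strandedness, so antisense overlaps are uncertain. Symbols came from GENCODE M21 (GRCm38), which held 51633 of 51826 identifiers. The table held 0 columns of other samples.

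The comparison of HET with WT used edgeR 4.0.16 under R 4.3.3, with filterByExpr, TMM scaling and the quasi-likelihood F test on all genes, genotype being the only term. SE is the log2 fold change over the root of F, and 95% intervals use 2 residual plus 4.08 prior degrees of freedom. The common biological coefficient of variation was 0.46. CPM are TMM-scaled, and log2 CPM use a prior count of 2. An exact two-sided permutation test of 2 against 2 libraries cannot give a p below 0.33. The script was tested on counts simulated with a biological coefficient of variation of 0.1, below the 0.46 of these data. That check therefore does not show how small a change could be found here.

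Alternatives were relative log expression and upper-quartile scaling, 2 other filters (no filter beyond 1 count, and 1 CPM in 2 libraries), DESeq2 1.42.0, limma-voom (3.58.1), library sizes of nuclear protein-coding genes, leaving out each library among the genes tested with all of them, and another gene length. Members and lists were chosen with earlier results of these data known. The text names all 10 members, Elf5, passing list members or else the 2 of smallest p per list, the 5 genes most like Cd274 among those whose log2 CPM averaged 1 or more, and checks of the sort; other names are marked as chosen after their values were seen or serve as receptors, neighbours or markers beside a member. Each pair of libraries differed by more than sampling noise (chi-square per degree of freedom 43 to 109), and all 4 were kept.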

Additional observations from a re-analysis of the deposited data

How the results depend on the processing

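Members called numbered 0 under all 11 alternatives. Over all genes 0 were called with all libraries, 324 with no filter beyond 1 count, 134 by DESeq2, and between 0 and 657 when 1 library was left out (657 without WT 1, 9 without the library labelled WT 2). Among the other checkpoint genes the count was between 0 and 2 when 1 library was left out. Lgals9, Cd276, Cd47, Vtcn1 and Cd86 kept their sign throughout. Without the library labelled WT 2 the log2 fold change reversed for Cd274 (-0.10), Cd80 (0.19), Pvr (0.087) and Nt5e (0.33), and Pvr also reversed under upper-quartile scaling (0.030) and without HET 1 (0.07); the causes were not tested. Upper-quartile scaling moved the median of all genes to 0.12. Mean level per kilobase moved by more than the spread between libraries with longest transcripts for Pvr (15.4) and Nt5e (32.6). Leaving out a library gave ranges of -0.10 to 2.45 for Cd274, -1.08 to 0.19 for Cd80, -0.33 to 0.087 for Pvr and -2.74 to 0.33 for Nt5e; these fits take the remaining library of a genotype to vary as the other genotype did. No paired analysis was possible because the titles give no number shared by HET and WT libraries other than tumour 1. Depth limited Pdcd1lg2, at 10 counts or fewer.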
